A study of Mus musculus with 16 samples.

Results

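The regions described here were peaks in both Tead CUT&RUN libraries of E12.0 progenitors of the mouse organ of Corti, in chromatin with few or no ATAC-seq intervals. The peaks of both Tead libraries were merged where they overlapped by 1 bp or more, which gave 74967 regions, of which 1590 were held by both libraries. Of these 1590, the 407 that overlapped an interval in at most 1 of the 6 ATAC-seq lists are the members, 25.6% of the regions held by both. The other 1183, in 2 or more ATAC-seq lists, are called open Tead regions below. The members were selected on Tead and ATAC-seq peaks, so their values in those assays are a description with no test. H3K27ac and RNA were not used in the choice.

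The series measured RNA, open chromatin (ATAC-seq), the histone mark H3K27ac and Tead binding in sorted progenitors of the organ of Corti, the strip of cochlear epithelium that senses sound. The E13.5 cells were p27-GFP+ and the E12.0 cells Sox2-GFP+, each purified from cochlea by FACS. The E13.5 group has 2 RNA, 3 ATAC-seq and 2 H3K27ac libraries. The E12.0 group has the same numbers and 2 Tead libraries, made with a pan-Tead antibody. Age and sorting reporter changed together, so their parts in a stage difference cannot be told apart. Whether replicates are separate litters is not stated in the labels, and p-values then measure only the spread between these libraries.

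Yap and its relative Taz are transcriptional co-activators that the Hippo kinases keep out of the nucleus. They do not bind DNA themselves and reach their target genes through Tead proteins, which recognise a short motif read as GGAATG on one strand and CATTCC on the other. In many cell types Tead proteins sit mainly at active enhancers, where the chromatin is open and the neighbouring nucleosomes carry acetylation of histone H3 at lysine 27 (H3K27ac). In the embryonic cochlea the Yap and Tead pair is known for its part in progenitor proliferation.

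Promoters were rare among the members, and the promoter windows that overlapped a member are printed here in full. They reach beyond the members, and sequence was used at no other member. RefSeq promoter windows of GRCm38.p6 cover 250 bases before and 50 after a listed start site and were used for all chromosomes but 18. A gene can have more than 1 such window (32851 windows, 27025 genes). Of 401 members on those chromosomes 3 (0.748%) overlapped a window, against 396 of 1150 open Tead regions (34.4%). The 2 sets were split by ATAC-seq lists, and the part of that split in this contrast was not tested. The letters GGAATG or CATTCC occurred in 2 of these 3 windows, in 56 of 579 windows that overlapped an open Tead region (9.67%) and in 4817 of all 32851 windows (14.7%). Both spellings are the same motif read from opposite strands. Capitals mark a match, and each sequence runs 5′ to 3′ on the strand of the gene.
Epyc promoter, chr10:97646853-97647152, plus strand: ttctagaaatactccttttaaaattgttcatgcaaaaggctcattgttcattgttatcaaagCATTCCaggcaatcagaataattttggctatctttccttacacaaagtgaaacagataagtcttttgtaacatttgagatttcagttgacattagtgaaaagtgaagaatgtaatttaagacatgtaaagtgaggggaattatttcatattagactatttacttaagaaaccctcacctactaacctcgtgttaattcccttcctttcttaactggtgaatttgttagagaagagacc
Ifi202b promoter, chr1:173982795-173983094, minus strand: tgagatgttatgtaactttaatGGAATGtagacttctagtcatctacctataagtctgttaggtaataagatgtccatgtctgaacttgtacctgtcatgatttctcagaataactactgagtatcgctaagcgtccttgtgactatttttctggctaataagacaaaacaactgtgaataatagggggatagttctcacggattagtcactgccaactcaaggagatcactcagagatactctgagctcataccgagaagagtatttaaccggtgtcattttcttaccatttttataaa
Gm40468 promoter, chr8:20261150-20261449, minus strand: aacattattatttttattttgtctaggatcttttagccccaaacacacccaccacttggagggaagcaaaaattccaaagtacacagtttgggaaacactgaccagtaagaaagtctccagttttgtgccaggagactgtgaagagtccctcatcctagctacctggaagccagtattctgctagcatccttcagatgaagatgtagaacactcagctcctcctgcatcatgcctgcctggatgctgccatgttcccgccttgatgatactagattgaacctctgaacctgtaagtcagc
In the Epyc window CATTCC begins 188 bases before the start site and lies inside the member chr10:97646874-97647283, which also holds the start site. That start site lies inside the span of Epyc, chr10:97644068-97681908, and not at the first base of the span. In the Ifi202b window GGAATG begins 228 bases before the start site and lies outside the member chr1:173981856-173982918, which holds the start site. The Gm40468 window has no match, and its start site is outside the member chr8:20261335-20262107. Of the 300 bases of each window, 279 (Epyc), 124 (Ifi202b) and 115 (Gm40468) lie inside the member. A match is a description of these letters and does not show binding at them.

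Across the whole series, expected counts summed to 17057725 and 19570863 in the E13.5 RNA libraries and to 9412287 and 9810541 in the E12.0 ones. Prosensory markers were at 1 TPM (a share of the library's transcripts, which is a level per length) or more for 8 of 8 genes in every library, with summed levels of 3904 and 4100 TPM at E13.5 and 1306 and 1643 TPM at E12.0. Endothelial, erythroid and immune markers summed to at most 0.907 TPM in any library, and those of glia and melanocytes to 192 and 215 TPM at E13.5 and 39.6 and 59.3 TPM at E12.0. Of the 5 glial and melanocyte markers 3 and 4 were at 1 TPM or more at E13.5 and 2 and 3 at E12.0, with Dct at 0 in both E12.0 libraries. Mesenchymal markers summed to at most 4.12 TPM in any library. Neuronal markers summed to 14.1 and 12.5 TPM at E13.5 and 7.55 and 15.1 TPM at E12.0, but through different genes. Of the 4 neuronal markers 1 and 1 were at 1 TPM or more at E13.5 and 3 and 4 at E12.0. Tubb3 made up most of the E13.5 sums (13.3 and 11.8 TPM). Neurod1 was at 0 and 0.0362 TPM at E13.5 and 3.35 and 7.38 TPM at E12.0. The part of these markers in the RNA results was not tested. The Tead lists differed in size, with 18250 peaks in replicate 1 (KAPA HTP kit) and 58410 in replicate 2 (Accel 2S Plus kit). The reads behind each peak are not in the lists, so the depth of the peaks is unknown, and no library without a specific antibody was analysed here. RNA levels are given as TPM and stage differences from edgeR, which scales the libraries differently. The median stage difference over all genes was 0.05 (log2) with edgeR and 0.76 on log2(TPM + 1), so a gene can have more TPM at E13.5 and no rise in edgeR.

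Tead peaks in closed chromatin repeated poorly between the Tead libraries, and repeats were also few over the whole lists. Both libraries held 8.72% of all regions of replicate 1 and 2.73% of those of replicate 2. Replicate 1 held 16151 Tead regions in at most 1 ATAC-seq list, and replicate 2 also held 2.52% of them, against 56.9% of the 2079 that replicate 1 held in open chromatin. Replicate 2 held 28865 closed regions, of which 1.41% were also in replicate 1, against 4.02% of its 29462 open regions. The members are therefore a small remainder of 2 much longer lists of closed regions.

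The label of closed chromatin held for most members in the sense of the lists. No ATAC-seq list held 345 of the 407, and 62 were in 1 list. Those 62 were spread over all ATAC-seq libraries, with 8, 8 and 14 in E13.5 replicates 1, 2 and 3 and 16, 9 and 7 in the E12.0 ones. Of the 345, 117 lay within 1 kb of an ATAC-seq interval and 61 lay beyond 10 kb of any, with a median distance of 2135 bp (8 to 1755136 bp). Closed here means only that no interval was listed there at the authors' threshold. At the edge of the rule, the 62 regions in 1 ATAC-seq list had median Tead folds of 2.67 and 2.18 and 59.7% lay in an H3K27ac list. The 60 regions in 2 lists, just outside, had median folds of 2.64 and 2.32 and 78.3% lay in an H3K27ac list.

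Most members were weak Tead peaks, with median folds equal to those of all peaks in the 2 lists. The fold, which is the authors' ratio of signal over local background at a peak's summit, had a median of 2.72 in members against 2.87 in open Tead regions in replicate 1. In replicate 2 it was 2.19 in members against 2.85 in open Tead regions. Over all peaks of a list the median was 2.72 in replicate 1 and 2.19 in replicate 2. Both libraries gave a −log10 q of 2 or more at 102 members (25.1%) and at 340 open Tead regions (28.7%). In replicate 1, 50 members shared the same fold of 2.57, which shows how coarse the values of weak peaks are. Members were narrower than open Tead regions, with a median of 554 bases against 889. The summits of the 2 libraries were a median of 150 bases apart in members and 174 in open Tead regions, and lay within 100 bases of each other at 138 members (33.9%).

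**Figure D1:**
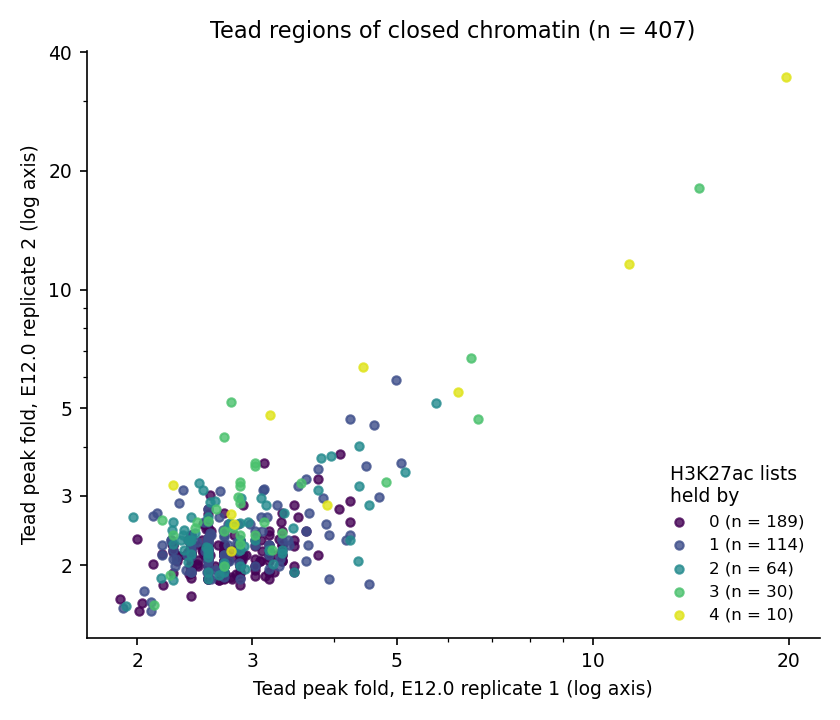
Fold of each of the 407 members in E12.0 Tead replicate 1 (horizontal, log axis) and replicate 2 (vertical, log axis), as the authors' lists give it; points are members, coloured by how many of 4 H3K27ac lists hold them. Most members lie near the medians of 2.72 and 2.19, and the 3 with the highest folds, up to 19.83 and 34.52, lie in 3 or 4 H3K27ac lists.

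A few members were among the strongest peaks of their lists, and some of these places were also strong in the H3K27ac lists. The best ranked member, chr4:64497696-64498234, lies 450681 bp from the nearest protein-coding gene, Tnc, which encodes the matrix glycoprotein tenascin C. Its Tead folds of 19.83 and 34.52 rank 2 in both libraries. Its H3K27ac folds were 23.65 and 15.71 in the E13.5 libraries, rank 3 in both, and 32.09 and 19.77 in the E12.0 libraries, rank 2 in both. The H3K27ac summits lay 4 to 10 bases from the Tead summit of replicate 2, and the nearest ATAC-seq interval was 4772 bp away. A single narrow place thus stood near the head of every CUT&RUN list, under both antibodies, at both stages and with both library kits, without an ATAC-seq interval.

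The second, chr12:74803876-74804611, 92606 bp from the potassium channel gene Kcnh5, had Tead folds of 14.56 and 18.09. It was in 3 H3K27ac lists, with folds of 3.84 and 4.19 at E13.5 and 20.18 in E12.0 replicate 1. It ranked 20841 and 4372 in the E13.5 lists against 3 in that E12.0 list, so the H3K27ac libraries differed widely there. Inside Dock2, the gene of a guanine-nucleotide exchange factor of blood cells, lie both the third, chr11:34681546-34682559, with Tead folds of 11.36 and 11.59, and the seventh, chr11:34544236-34545057, with folds of 6.2 and 5.5. All 4 H3K27ac lists held both, at folds of 8.59 and 8.81 at E13.5 and 12.15 and 8.54 at E12.0 for the third. The RNA of Dock2 was at 13 and 0 counts at E13.5 and 1 and 1 at E12.0, too few to be tested.

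The fourth, chr10:73378901-73379518, lies inside Pcdh15, a protocadherin of the hair cell tip link, with Tead folds of 6.51 and 6.69. It was the best ranked member inside a gene of the hair cell list. Pcdh15 RNA was at 57.5 and 27.1 TPM at E13.5 and 15.0 and 26.3 TPM at E12.0, and the stage difference was not called (edgeR log2 fold change −0.45 ± 0.33, SE, adjusted p = 0.288). It was called lower without E13.5 replicate 1 (−1.05, adjusted p = 0.031). Of the 10 best ranked members, the others lay at chr9:3001754-3002627, inside Ank1 (an ankyrin of the red cell membrane), inside Mdga2 (a synaptic adhesion protein), and at chr11:3100284-3100778 and chr16:3349929-3350563. All 10 were in no ATAC-seq list and in 1 or more H3K27ac lists. All 4 H3K27ac lists held chr9:3001754-3002627 and chr9:3033174-3033511, near the start of chromosome 9, with folds at the first-named place of 6.34 and 9.14 at E13.5 and 5.77 and 6.75 at E12.0. At the other place they were 4.74 and 3.86 at E13.5 and 4.69 and 3.33 at E12.0. The 5 best ranked in no list of either assay stood lower, at ranks 14 to 45 among the members. They lay inside Sfi1, Zfp980 and Zfp984, at chr16:3350937-3351459 and at chr14:6983813-6984298, and their Tead folds ran from 3.13 to 4.24 in replicate 1 and from 2.85 to 3.84 in replicate 2.

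H3K27ac lists held about as many members as they missed. At least 1 of the 4 lists held 218 members (53.6%), against 1155 open Tead regions (97.6%) and 86.4% of all 1590 regions of both libraries. By number of lists, 189 members (46.4%) were in none, 114 in 1, 64 in 2, 30 in 3 and 10 in all 4. All 4 lists held 418 open Tead regions (35.3%). H3K27ac folds at members were also lower, with medians of 3.3 and 3.3 in the E13.5 lists and 3.09 and 3.14 in the E12.0 lists. At open Tead regions the medians were 5.13 and 3.59 in the E13.5 lists and 4.47 and 3.77 in the E12.0 lists.

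**Figure D2:**
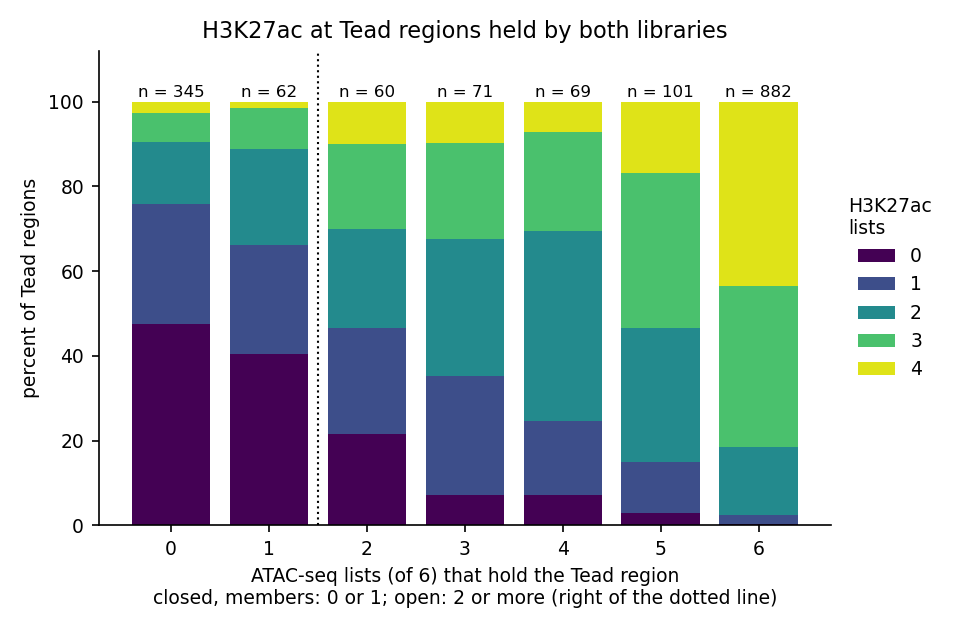
Percent of the Tead regions of both libraries (vertical) in 0 to 4 H3K27ac lists (colours), by the number of ATAC-seq lists that hold them (horizontal; n above each bar). Members are the bars at 0 and 1, left of the dotted line: 52.5% and 59.7% of them are in an H3K27ac list, against 78.3% at 2 ATAC-seq lists and 99.8% at 6.

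By library, E13.5 replicates 1 and 2 held 96 members (23.6%) and 59 members (14.5%), and E12.0 replicates 1 and 2 held 152 (37.3%) and 65 (16%). The same lists held 90.9% and 44.0% of the open Tead regions at E13.5 and 91.6% and 68.0% at E12.0. In every library the members were the lower of the 2 sets. The mean over libraries was 22.9 ± 10.5% in members and 73.6 ± 22.6% in open Tead regions (SD, n = 4). The difference of −50.8 percentage points ran from −67.3 to −29.5 and was negative in 4 of 4 libraries. An exact two-sided sign-flip permutation test gave p = 0.125, the smallest p that 4 libraries allow. The 2 sets were split by ATAC-seq lists, and H3K27ac differed along that split. Of the Tead regions of both libraries, 52.5% at 0 ATAC-seq lists and 99.8% at 6 were in an H3K27ac list. The parts of that split and of promoter overlap in the difference were not tested, so no conclusion is drawn from this p. The difference was −54.2 without the members of dense bins described below. With H3K27ac peaks limited to a −log10 q of 2 or more, the mean share of members was 14.9%. With Tead peaks limited to a −log10 q of at least 2 or a −log10 p of at least 5, it was 35.5% or 36.2%, in 102 or 139 members.

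Against closed regions of a single Tead library the members had more H3K27ac in every list. Replicate 1 alone held 15744 closed regions, of which 1.8 to 3.48% were in an H3K27ac list, a mean of 2.97 ± 0.787%. Replicate 2 alone held 28458, of which 7.06 to 16.6% were, a mean of 11.9 ± 4.79% (SD, n = 4). The differences of 19.9 and 11 percentage points were positive in 4 of 4 libraries, each with an exact permutation p = 0.125, again the smallest possible.

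Width differed between these sets and moved with the shares. A member joins 2 peaks, and its median width of 554 bases compares with 361 and 249 bases for closed regions of replicate 1 alone and of replicate 2 alone. Under 500 bases, 147 members had a mean share of 16.7%, against 50.8% in open Tead regions, 2.77% in replicate 1 alone and 10.9% in replicate 2 alone. At 500 to under 1000 bases, 227 members had 23.3%, against 68.6% in open regions, 4.72% in replicate 1 alone and 30.9% in replicate 2 alone. At 1000 bases or more, 33 members had 47.0%, against 86.2% in 493 open regions, 12.5% in 6 regions of replicate 1 alone and 63.2% in 36 of replicate 2 alone. The excess over replicate 2 alone was thus present in 1 of 3 width classes, under 500 bases, and had the opposite sign in both wider ones. The excess over replicate 1 alone and the gap to open regions each kept their sign in all 3 width classes. These width classes were added after the shares were seen and were not tested.

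**Figure D3:**
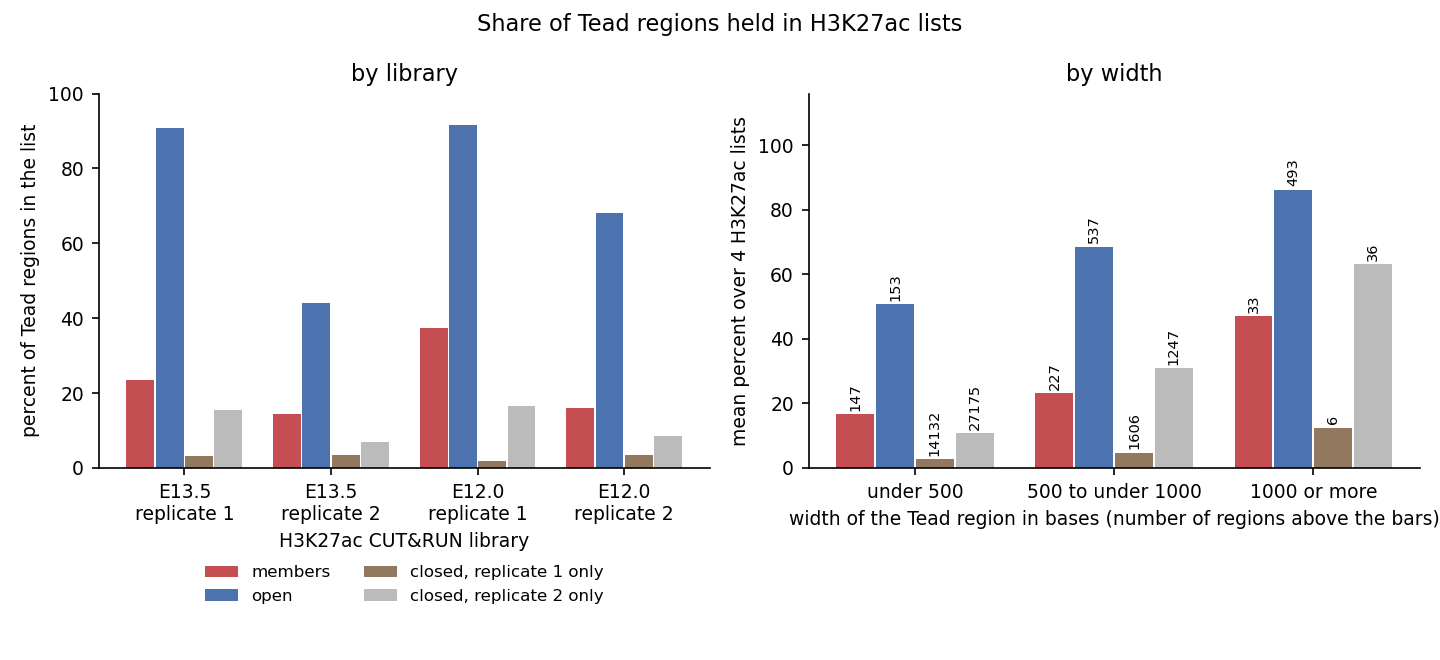
Left, percent of the members, of open Tead regions and of closed regions of a single Tead library that each H3K27ac library holds; right, the mean of the 4 percentages by width of the region, with the number of regions above each bar. Members lie below open Tead regions in all libraries and width classes; they lie above closed regions of replicate 2 alone under 500 bases (16.7% against 10.9%) and below them at 500 to under 1000 bases (23.3% against 30.9%) and at 1000 bases or more (47.0% against 63.2%).

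H3K27ac was listed most often at the members with the best Tead ranks. When members were ordered by the worse of their 2 Tead ranks and cut into 5 blocks of 81 or 82, 81.7% of the strongest block were in an H3K27ac list. The next blocks, in order, had 70.4%, 43.2%, 30.9% and 41.5%. From the strongest block on, the median Tead folds were 2.97, 2.38, 2.19, 2.06 and 1.91 in replicate 2. In replicate 1 they were 3.24, 2.57, 2.66, 2.72 and 2.67. After the strongest block the order thus followed replicate 2, the longer list, and not the fold in replicate 1. The strongest block also held 46 of the 104 members of dense bins, against 25, 7, 11 and 15 in the other blocks, and the part of these bins in the order was not tested. Where an H3K27ac peak overlapped a member, its summit lay within 100 bases of the Tead summit of replicate 2 at 34.4% and 44.1% of such members in the E13.5 lists and at 43.4% and 35.4% in the E12.0 lists. The values for open Tead regions were 40.4% and 29.8% at E13.5 and 44.9% and 39.4% at E12.0.

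The members showed no stage difference in H3K27ac beyond the spread between libraries. The mean share was 19 ± 6.43% at E13.5 and 26.7 ± 15.1% at E12.0 (SD, n = 2 each), a difference of −7.62 percentage points, with an exact two-sided permutation p = 0.667 where 0.333 is the smallest possible. Without E12.0 replicate 1, whose list held the most members and which, like Tead replicate 1, was made with the KAPA HTP kit, the difference was 3.07. The part of the kit in these shares was not tested.

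Few members had H3K27ac at 1 stage in both of its libraries. Both E13.5 lists and no E12.0 list held 6 members (1.47%, against 0.943% of all Tead regions of both libraries). Both E12.0 lists and no E13.5 list held 18 (4.42%, against 2.08%). The best ranked of the E13.5 kind lay at chr9:3012425-3012951, inside Phldb2, inside Cyp2j11, inside Ngly1 (a cytosolic deglycosylating enzyme) and 5664 bp from Sult1d1 (a sulfotransferase). Cyp2j11 and Sult1d1 had no RNA count, and Phldb2 was not called (edgeR log2 fold change 0.05 ± 0.32, SE, adjusted p = 0.911). Ngly1 RNA was higher at E13.5, with 16.2 and 22.5 TPM at E13.5 and 2.98 and 7.58 TPM at E12.0 (edgeR log2 fold change 1.18 ± 0.42, SE, adjusted p = 0.0397). Leaving out E12.0 replicate 1 (0.81, adjusted p = 0.179) or E13.5 replicate 2 (0.95, adjusted p = 0.169) ended that call in edgeR. The best ranked of the E12.0 kind lay 29221 bp from Sfi1, inside Zfp600, inside Speer4e, 10692 bp from Zfp978 and inside Nup50, a nucleoporin gene. Nup50 RNA was at 35.6 and 48.4 TPM at E13.5 and 55.1 and 73.4 TPM at E12.0 and was called lower at E13.5 (−1.43 ± 0.26, edgeR adjusted p = 0.00141), though not with limma on log2(TPM + 1) (−0.6, adjusted p = 0.178).

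Part of the members lay close together. Within 10 kb of another of their set lay 83 members (20.4%) and 61 open Tead regions (5.16%). Cut into bins of 1 Mb, the genome had 15 bins with 5 or more members, which held 104 of them (25.6%). The open Tead regions had 16 such bins with 94 regions (7.95%). These bins are called dense here. Outside the dense bins the members were scattered, and 232 of the 277 bins with a member had only 1.

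The fullest dense bin, chr4:147000001-148000000, held 16 members among the genes Zfp978, Zfp991, Zfp988, Zfp982, Zfp985, Zfp979, Zfp534 and Zfp984, which encode zinc finger proteins. The bins chr4:145000001-146000000, with 9 members, and chr4:146000001-147000000, with 5, lie beside it, and chromosome 4 held 57 members in all (14%) against 75 open Tead regions (6.34%). Other dense bins held the beta-defensin gene Defb33 (chromosome 8, 10 members), Sfi1, a centrosome gene (chromosome 11, 9 members), the splicing gene Cwc22 with Ccdc141, Sestd1 and Zfp385b (chromosome 2, 8 members), Speer4 genes (chromosome 5, 6 members in each of 2 bins), and Alkbh8, Cwf19l2 and Gucy1a2 (chromosome 9, 5 members). A gene in a dense bin need not be near a member, and none of 71 defensin genes had one within 10 kb. In the first 4 Mb of the chromosomes, where mouse assemblies begin next to the centromere, lay 25 members (6.14%) on 7 chromosomes and 13 open Tead regions (1.1%) on 9. The 4 Mb limit was chosen after the positions were seen.

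**Figure D4:**
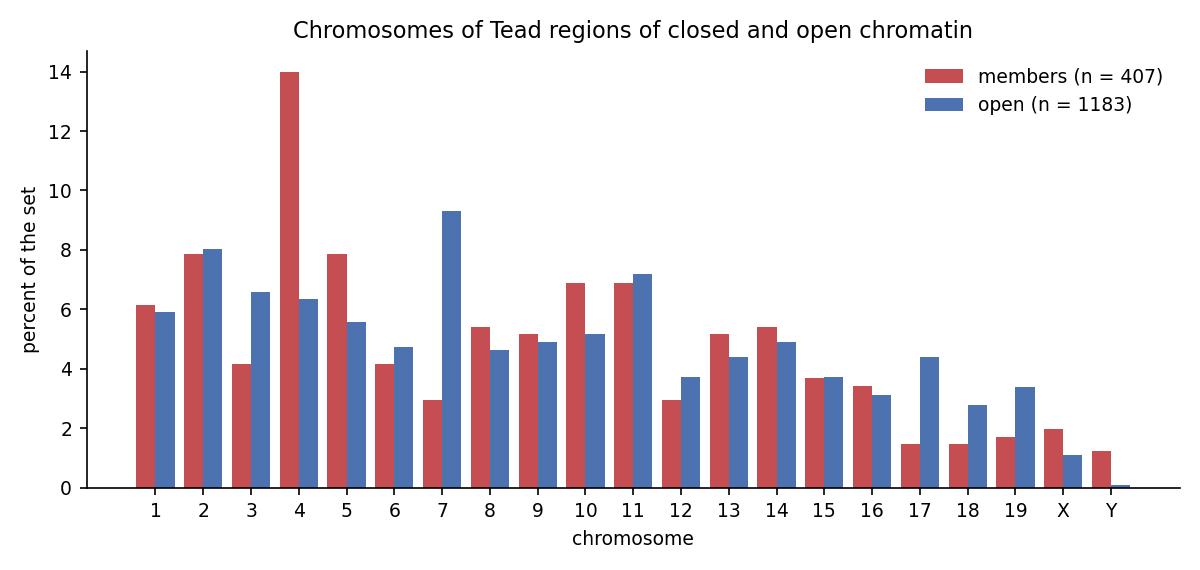
Percent of the 407 members and of the 1183 open Tead regions (vertical) on each chromosome (horizontal). Chromosome 4 holds 14% of the members and 6.34% of the open regions; chromosome 7 holds 2.95% of the members and 9.3% of the open regions.

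Dense bins differed from the rest of the members in H3K27ac. Of the 104 members in them 71 (68.3%) were in an H3K27ac list, against 147 of the 303 elsewhere (48.5%). The largest gap was in E12.0 replicate 1, with 58.7% against 30%, and E13.5 replicate 2 went the other way, with 11.5% against 15.5%. Of the 5 members of a bin on chromosome 3, none was in an H3K27ac list. By median, ATAC-seq intervals were fewer in the dense bins, with 35, 42 and 41 per bin in the E13.5 replicates, against 80, 78 and 89 over all bins with an interval. In the E12.0 replicates the medians were 19, 16 and 19 against 42, 48 and 37. The bins chr2:77000001-78000000 and chr11:3000001-4000000 were above the medians over all bins in every replicate. They had 138 to 156 and 121 to 130 intervals at E13.5, and 50 to 82 and 100 to 124 at E12.0. Dense bins were found from members chosen for few ATAC-seq intervals, so these counts are a description with no test. The sources used here do not give how reads with several equal alignments were treated, and their part in these bins was not tested.

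Few genes of any list had a member nearby, and few of all genes did. A member lay in the span or within 10 kb of 260 of 21887 protein-coding genes (1.19%), and an open Tead region of 1322 (6.04%). No member was near any gene of fixed lists of 29 Yap and Tead target genes, 30 cell cycle genes and 24 synaptic adhesion genes. A share of 1.19% would give under 1 gene in a list of such length. Open Tead regions were near 5, 4 and 4 of the listed genes (17.2%, 13.3% and 16.7%). The synaptic adhesion list does not hold Mdga2 or Adgrl3, which have members in their spans. Of 30 Hippo pathway genes 1 had a member (3.33%), Frmd6, a FERM protein upstream of the kinases. Of 25 prosensory genes 2 had one (8%), Eya1, a co-activator of otic development, and Sall1, a zinc finger repressor. Of 15 hair cell genes 1 had one (6.67%), Pcdh15. These shares are above that of all genes but rest on 1 or 2 genes each and were not tested. Zinc finger genes named Zfp had members at 14 of 400 (3.5%), 11 of them on chromosome 4, and open Tead regions at 40 (10%).

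The members near the 3 Hippo and prosensory genes were all weak. The one in Frmd6, chr12:70843047-70843553, had Tead folds of 2.42 and 1.92 and lay in 1 H3K27ac list. The one in Eya1, chr1:14179455-14180009, had folds of 2.72 and 1.92 and lay in none. The one 110 bp from Sall1, chr8:89026614-89027132, had folds of 2.57 and 2.1 and lay in 1. None of these genes was called between stages by edgeR. The log2 fold changes were −0.44 ± 0.26 for Frmd6, 0.28 ± 0.24 for Eya1 and 0.59 ± 0.23 for Sall1 (SE), with adjusted p of 0.187, 0.359 and 0.0585. On log2(TPM + 1) limma called Eya1 (1.26, adjusted p = 0.0136) and Sall1 (1.39, adjusted p = 0.00961) higher at E13.5, on the scale whose median over all genes is 0.76.

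By number of members in the span, Zfp978 had 6, Sfi1 5, Gm42346 4, and 2410141K09Rik and Adgrl3 3 each. Zfp978 RNA had no count in any library. Adgrl3, a latrophilin adhesion receptor, spans 809 kb. Its RNA was at 185 and 119 TPM at E13.5 and 18.9 and 28.0 TPM at E12.0, higher at E13.5 (edgeR log2 fold change 2.05 ± 0.27, SE, adjusted p = 0.000215). Sfi1 RNA was at 42.2 and 38.8 TPM at E13.5 and 52.6 and 81.4 TPM at E12.0, lower at E13.5 (−1.29 ± 0.26, edgeR adjusted p = 0.00247), though not with limma on log2(TPM + 1) (−0.68, adjusted p = 0.139). Both genes separated the stages without overlap, in opposite directions.

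Genes near members had RNA nearly as often as genes near open Tead regions. Of 251 genes with a member in the span or within 10 kb and a match in the RNA tables, 215 (85.7%) passed the filter on low counts, against 88.4% of genes near an open Tead region and 59.8% of all protein-coding genes. No count in any library was found for 16 of the 251 (6.37%), against 24.3% of all protein-coding genes. Their median level was 32.1 and 24.3 TPM at E13.5 and 10.9 and 15.3 TPM at E12.0. The median over all protein-coding genes was 4.41 and 4.27 TPM at E13.5 and 1.73 and 2.37 TPM at E12.0. The sets overlap, since 43 of the 260 genes near a member were also near an open Tead region. A gene is counted through its whole span, which favours long genes, and the part of gene length was not tested. In sorted bulk cells a lower level can mean fewer cells with the RNA or less RNA in each, which cannot be told apart.

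The stage difference of these genes was near that of all genes. Of the 215 tested, 49 were higher at E13.5 (22.8%, against 22.4% of all 15982 genes tested), 53 were lower (24.7%, against 23.5%) and 113 were not called (edgeR quasi-likelihood test, adjusted p at most 0.05). Their median log2 fold change was 0.13, against 0.05 over all genes. Genes near an open Tead region had 22.8% higher, 25.9% lower and a median of −0.04. Without the members of dense bins 45 were higher and 52 lower, of 206 genes tested. The split depended on the scale, since limma on log2(TPM + 1) gave 99 higher and 14 lower (41.3% and 12.5% of all genes). Without E12.0 replicate 1 edgeR gave 29 higher, with 13.2% of all genes.

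The genes that rose most at E13.5 included 4 of the zinc finger block on chromosome 4. Zfp982 had 143 and 177 counts at E13.5 and 0 and 0 at E12.0, at least 37.7-fold higher when the E12.0 libraries together are given 3 counts (edgeR adjusted p = 0.000497). Zfp993 had 92 and 52 counts at E13.5 and 0 and 0 at E12.0, at least 17-fold higher (edgeR adjusted p = 0.0027). Zfp984 was at 5.75 and 8.51 TPM at E13.5 and 0.202 and 0.308 TPM at E12.0, and Zfp991 at 18.6 and 23.9 TPM at E13.5 and 0.939 and 3.51 TPM at E12.0. The stages did not overlap for any of the 4. The labels do not state how reads that match several genes of this family were assigned, so the split of reads between them is uncertain. In the same block Zfp992 was not called (log2 fold change 0.59 ± 0.34, SE, edgeR adjusted p = 0.176), and Zfp600 had 5 and 0 counts at E13.5 and none at E12.0.

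Acss3, a mitochondrial acyl-CoA synthetase gene with a weak member in its span, was at 34.3 and 31.1 TPM at E13.5 and 0.0764 and 0.744 TPM at E12.0 (edgeR log2 fold change 5.48 ± 0.66, SE, adjusted p = 0.00013). The endocytic scaffold gene Itsn2 and the nucleoside diphosphate kinase gene Nme4 rose by 2.87 ± 0.41 and 2.86 ± 0.45 on the log2 scale (SE, edgeR adjusted p of 0.000367 and 0.000679). Gpr183, Kif13b and Ralyl completed the 10 with the largest rise, but each lost the call when at least 1 E12.0 or E13.5 library was left out.

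Epyc, with a promoter window printed above, was among the genes that fell at E13.5. It encodes epiphycan, a small leucine-rich proteoglycan of the extracellular matrix. Its RNA was at 2.96 and 1.2 TPM at E13.5 and 15.6 and 8.75 TPM at E12.0 (edgeR log2 fold change −3.36 ± 0.67, SE, adjusted p = 0.00247). The stages did not overlap. Its member had Tead folds of 2.4 and 2.31 and lay in both E12.0 H3K27ac lists, at folds of 3.65 and 2.62, and in neither E13.5 list. Ifi202b, an interferon-inducible gene, had no RNA count in any library, and its member at the printed promoter lay in 3 H3K27ac lists, both E13.5 lists among them.

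Rbpj, which encodes the DNA-binding effector of Notch signalling, was at 42.3 and 37.7 TPM at E13.5 and 102 and 113 TPM at E12.0 (edgeR log2 fold change −2.34 ± 0.25, SE, adjusted p = 6.41e-05). Its member, chr5:53598163-53598976, had Tead folds of 2.72 and 2.36 and lay in 1 H3K27ac list. Smad4, the shared mediator of TGF-beta and BMP signals, was at 108 and 115 TPM at E13.5 and 303 and 350 TPM at E12.0 (−2.44 ± 0.25, edgeR adjusted p = 5.38e-05). Both genes were lower in both E13.5 libraries than in either E12.0 library. Dut (dUTP pyrophosphatase), Wipf3 (an actin regulator), Copg2 (a coatomer subunit), Tns3 (a tensin) and Zfp217 (a zinc finger repressor) fell by 2.2 to 2.66 on the log2 scale.

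Itln1, a lectin gene 7429 bp from a member, had 0 and 0 counts at E13.5 and 38 and 37 at E12.0, at least 70.7-fold lower when the E13.5 libraries together are given 3 counts (edgeR adjusted p = 0.000548). Doc2b, a calcium sensor gene of vesicle release, had 0 and 0 counts at E13.5 and 8 and 12 at E12.0, at least 18.9-fold lower (edgeR adjusted p = 0.00358). It was not called without E13.5 replicate 2 (log2 fold change −6.96) or with limma on log2(TPM + 1) (−0.46, adjusted p = 0.252). When either E12.0 library was left out, Doc2b did not pass the filter on low counts and was not tested. The genes named here for their rise or fall are the 10 largest of each direction among called genes whose stages did not overlap in TPM, and 15 of these 20 were called in every setting tried. That limit left out 2 genes with larger falls, Tiam1 (−3.09 ± 0.56, SE, edgeR adjusted p = 0.00149), which encodes an activator of Rac, and Mid1 (−2.5 ± 0.5, SE, edgeR adjusted p = 0.00267), a microtubule-associated ubiquitin ligase gene. Tiam1 was at 5.61 and 0.848 TPM at E13.5 and 4.92 and 22.2 TPM at E12.0, and Mid1 at 43.9 and 20.1 TPM at E13.5 and 29 and 86.2 TPM at E12.0. Mid1 was not called with limma (−0.73, adjusted p = 0.313). Bounds cover counting error only.

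**Figure D5:**
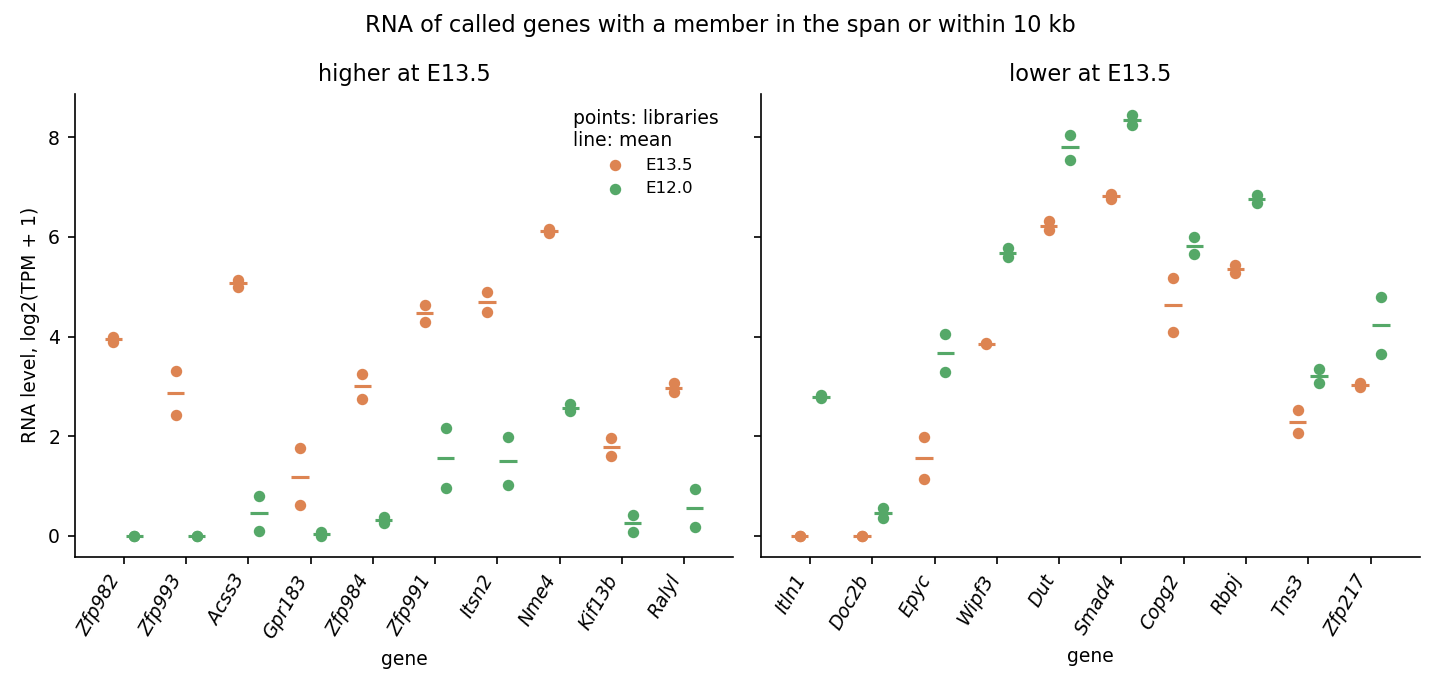
RNA level as log2(TPM + 1) (vertical) of the 10 genes with the largest rise and the 10 with the largest fall among called genes with a member in the span or within 10 kb whose E13.5 and E12.0 TPM did not overlap, with points for the 2 libraries of each stage and a line for their mean. Zfp982 and Zfp993 are at 0 in both E12.0 libraries and Itln1 and Doc2b in both E13.5 libraries; Epyc is at 2.96 and 1.2 TPM at E13.5 and 15.6 and 8.75 TPM at E12.0.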

How the data were processed

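The sources were 16 libraries. Groups and replicate numbers came from the sample titles. Per the labels' protocols, RNA libraries were TruSeq after poly(A) enrichment, E12.0 replicate 1 of H3K27ac and of Tead used the KAPA HTP kit, and the other CUT&RUN libraries used Accel 2S Plus with molecular identifiers. STAR, UMI-tools and MACS2 appear without versions in the submitters' processing notes, as do the builds GRCm38 and mm10, which are 1 assembly. RNA tables give an expected count for each Ensembl gene, with other columns for gene length, per the file headers. Peak lists were deposited per library, not pooled. Each carries the fold (a ratio of signal over local background), −log10 p and −log10 q by the authors, and a deposited score that was not used. The lowest deposited −log10 p was 2.00 to 2.51 by library. In the E13.5 ATAC-seq and all CUT&RUN lists 46 to 250 peak numbers were missing, against 0 in the E12.0 ATAC-seq lists, so the authors' filters differed between lists.

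Intervals were compared in Python 3.11.15 with functions tested on made-up intervals, and coordinates are 1-based on GRCm38. Gene spans and promoter windows came from RefSeq tables of GRCm38.p6. No genome sequence was used here, so the sequence of most members was not analysed. Expected counts were rounded, kept by filterByExpr (15982 of 48709 genes), TMM-scaled and passed to edgeR 4.0.16 in R 4.3.3 (quasi-likelihood test, 2 against 2 libraries, Benjamini-Hochberg adjustment, tested on simulated data). TPM came from expected counts and effective lengths. DESeq2 1.42.0 and limma 3.58.1 served as alternatives. A symbol was matched for 48349 identifiers. Replicates differed beyond sampling noise (chi-square over degrees of freedom was 35.2 at E13.5 and 21.8 at E12.0).

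Named members were the 10 best by the worse of their 2 Tead ranks and the best 5 in no ATAC-seq or H3K27ac list, in all 4 H3K27ac lists, and in the H3K27ac lists of only E12.0 or only E13.5. To these came the 10 best near a gene of the lists, the 10 genes with most members, and the 10 called genes with the largest rise and the 10 with the largest fall whose stages do not overlap. Not all of these are described. Members and gene lists were chosen with earlier results of these data known. The level of 1 further marker gene is not reported here by itself.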

Additional observations from a re-analysis of the deposited data

How the results depend on the processing

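The number of members depended on the Tead threshold and on the overlap asked for. It was 407 as deposited, 102 with a Tead −log10 q of at least 2, 139 with a −log10 p of at least 5, 261 with summits within 200 bases and 700 when intervals had to cover 50% of the region. Their mean share in an H3K27ac list was 22.9%, and 35.5% and 36.2% with the q and p limits (72.5% and 71.9% in any list, against 53.6%). Leaving out an ATAC-seq replicate gave 416 to 437 members and mean shares of 23.1 to 24.4%. Members minus open Tead regions was −57.9 to −45.3 percentage points when a replicate of either assay was left out. E13.5 minus E12.0 was −18.3 to 3.07, with 3.07 without E12.0 H3K27ac replicate 1. Genes near members numbered 49 higher and 53 lower with edgeR, of 215 tested, against 22.4% and 23.5% of all genes. Within 50 kb they numbered 76 higher and 74 lower, of 319 tested. With limma on log2(TPM + 1) they numbered 99 and 14 of the 215, against 41.3% and 12.5% of all genes. Without 1 RNA library they numbered 29 to 41 higher and 40 to 51 lower, with 29 higher without E12.0 replicate 1. With the replicate block 50 genes near members were higher and 55 lower, against 21.5% and 23.1% of all genes. The H3K27ac stage difference was then −7.62 (exact sign-flip permutation p = 0.5, the smallest p that 2 pairs allow). Same-numbered RNA libraries did not deviate together (correlation 0.00816), so the numbers do not pair them. Of the largest RNA changes, Gpr183 lost its call with DESeq2, with limma and when either E12.0 library was left out (adjusted p of 0.0541 to 0.17). Leaving out E12.0 replicate 2 (0.102) and leaving out E13.5 replicate 1 (0.0767) each ended the call of Kif13b. Ralyl was not called without either E13.5 replicate or without E12.0 replicate 2 (0.0617 to 0.13). Doc2b was not called without E13.5 replicate 2 or with limma (0.252), and was not tested when either E12.0 library was left out. Tns3 was not called with limma (0.0557). Peak lists carry no read counts, so depth at a member is unknown, and 4 H3K27ac libraries cannot reach a p below 0.125. The exclusion of 1 Mb bins and of chromosome Y was added after the data were seen; without chromosome Y there were 402 members with a mean share of 22.5%.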
